A study of Mus musculus with 12 samples.

Results

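The CC chemokines are small secreted proteins that attract leukocytes. Of the 770 genes on the NanoString nCounter Neuroinflammation panel, 5 carry a symbol that begins with Ccl and a number, and all of these were taken: *Ccl2*, *Ccl3*, *Ccl4*, *Ccl5* and *Ccl7*. The rule used the gene names and no measured value, though it was set with earlier results of these data known. RNA was counted in microglia, the resident macrophages of the central nervous system (CNS), of C57B6 mice. The adult mice were 12 to 20 weeks old, the aged mice were over 80 weeks old, and the labels describe mice and cells as untreated. Microglia were enriched with CD11b beads, fixed, permeabilized and sorted as YFP+, CD45 intermediate and Ly6G- cells, where the YFP reporter and a tamoxifen-dependent Cre recombinase are driven by the *Cx3cr1* promoter. Aged microglia were further separated by phosphorylation of ERK1/2 at Thr202/Tyr204 into P-ERK1/2 High (4 samples, here High microglia) and P-ERK1/2 Low (4 samples, here Low microglia), whereas adult microglia (3 samples) were not separated by P-ERK1/2. Each sample pooled the CNS of a male and a female. The legend of this experiment places tamoxifen shortly before the measurement in adult mice and long before it in aged mice, so that age and time since tamoxifen cannot be told apart. An additional adult sample, sample 11, is labelled as excluded for poor quality and was kept out of the comparisons.

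CC chemokines form gradients on extracellular matrix and signal through G protein-coupled receptors on the migrating cell. CCL2 and CCL7 recruit monocytes through CCR2, CCL3 and CCL4 (the macrophage inflammatory proteins MIP-1α and MIP-1β) attract macrophages and lymphocytes, and CCL5 (RANTES) attracts T cells and monocytes. Microglia are a known source of several of these ligands during inflammation and aging, and transcription of the genes is driven by NF-kB and other stimulus-dependent factors. All 5 genes lie on mouse chromosome 11 (GRCm38.p6), where *Ccl2* and *Ccl7* are direct neighbours, as are *Ccl3* and *Ccl4*.

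Total counts, recovered from the normalized values, were 650965 to 1539936 in the High samples, 123798 to 157209 in the Low samples and 137980 to 326575 in the adult samples. A gene's background in a sample was set at the mean plus 2 SD of the 8 negative control probes, which came to 20.6 to 41.9 counts in these samples. On the normalized scale this level was 26.1 to 39.5 in High, 37.9 to 95.1 in adult and 69.2 to 117 in Low samples, so that a gene of the same normalized value can pass it in High samples and not in Low samples. The panel changed broadly in the comparisons with High microglia: 217 genes were called higher and 74 lower in High than in Low microglia, which became 361 and 4 with the 6 most stable housekeeping genes as reference, and 59 and 311 with the total of all genes. The median change of all genes between these groups was 0.26 on the log2 scale as deposited, 1.02 with the 6 housekeeping genes and -0.76 with the total. Bulk values cannot tell more RNA per cell from more cells that express a gene. With the positive controls as reference, 658 genes were called higher and 0 lower in High than in Low microglia, so that lower calls in this comparison are lower relative to the housekeeping genes. The positive controls and unscaled counts do not adjust for the difference in total counts between the groups.

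The chemokines did not move as a group (plot of the values by sample). *Ccl2* increased from adult to Low to High microglia, whereas its neighbour *Ccl7* was higher in Low microglia than in both other groups on the deposited scale (the difference from High turned with the positive controls). *Ccl4* was likewise highest in Low microglia on that scale and turned without scaling and with the positive controls, *Ccl3* had its highest mean in High microglia and *Ccl5* its lowest mean in Low microglia. Between High and Low, 3 of the 5 genes were called (limma p below 0.01 with more than 1 log2 unit of change), with 1 higher and 2 lower, against 37.8% of all genes (28.2% higher and 9.61% lower). Between Low and adult, 4 of 5 were called, with 3 higher and 1 lower, against 10.8% of all genes (8.05% higher and 2.73% lower). Between High and adult, 2 of 5 were called, both higher, against 36.9% of all genes (29.2% higher and 7.66% lower). At an adjusted p under 0.05 with no limit on the fold, 4, 4 and 2 of the 5 passed in these comparisons, against 52.2%, 26.1% and 48.2% of all genes. The share of genes whose groups did not overlap was 49.4%, 36.5% and 50.3% in the same order, against 3, 4 and 2 of the 5 chemokines. The median log2 change of the 5 was 0.51, 1.17 and 0.78, against medians over all genes of 0.26, 0.10 and 0.35. The comparisons share samples, so they are not independent of each other.

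**Figure D1:**
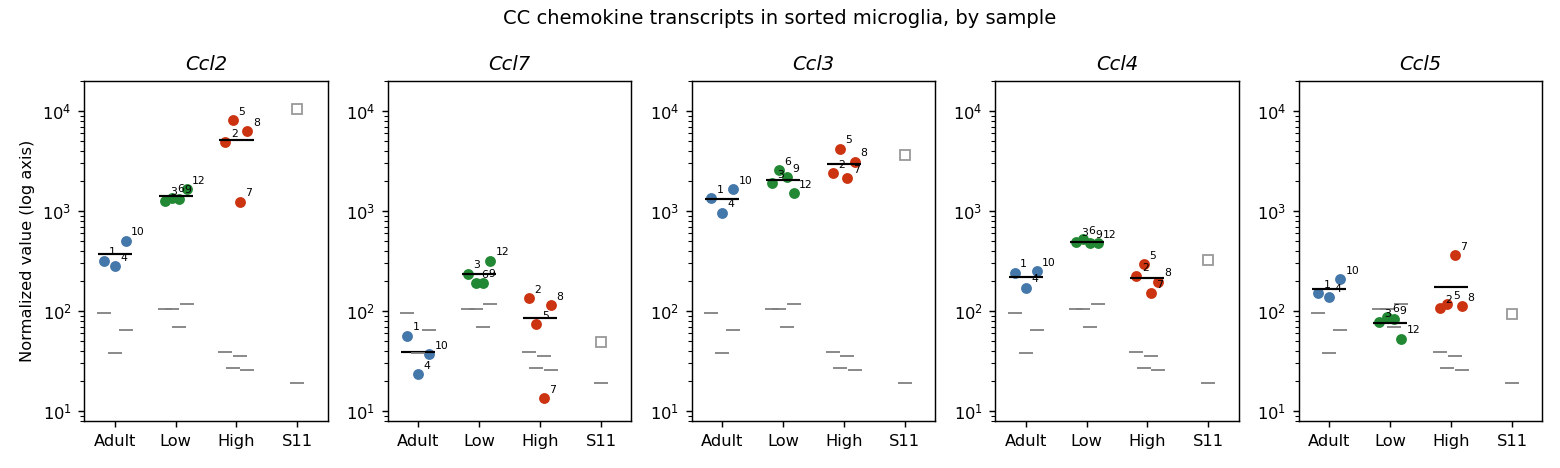
Normalized value of each CC chemokine (log axis) in every sample, with the sample number beside each point, the group mean as a long bar and each sample's background as a short grey bar. *Ccl2* rises across the 3 groups apart from High sample 7, *Ccl4* and *Ccl7* are highest in the 4 Low samples on the deposited scale, and the open square S11 is the excluded adult sample.

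*Ccl2*, the main attractant of CCR2-bearing monocytes, was above background in all samples. Its normalized values in adult microglia were 320 in sample 1, 282 in sample 4 and 507 in sample 10. In Low microglia they were 1274, 1367, 1330 and 1653 in samples 3, 6, 9 and 12. In High microglia they were 4884, 8119, 1249 and 6275 in samples 2, 5, 7 and 8. All Low samples were above all adult samples, and 3 of the 4 High samples were above all Low samples, while sample 7 was below them. The group means were 369 ± 120 (SD, n = 3) in adult, 1406 ± 169 (SD, n = 4) in Low and 5132 ± 2908 (SD, n = 4) in High microglia. The log2 fold change between Low and adult was 1.97 ± 0.22 (SE, limma, adjusted p = 0.00100), the seventh largest increase on the panel. Between High and adult it was 3.55 ± 0.56 (SE, limma, adjusted p = 5.0e-04), the second largest increase. Between High and Low it was 1.59 ± 0.47 (SE, limma, adjusted p = 0.0140) with overlapping groups. Without sample 7 this last change was 2.17, whereas leaving out any 1 of the other 7 samples gave 1.27 to 1.67 and no call. Under the other references the change kept its sign, and it lost the call with median-of-ratios scaling (1.32), quantile normalization (1.14) and the total of all genes (0.56). Excluded adult sample 11 had a *Ccl2* value of 10439, above every other sample, and with it in the adult group neither difference from adult was called (0.75 for Low and 2.33 for High).

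*Ccl7* encodes a second CCR2 ligand, monocyte chemotactic protein-3. In adult microglia its normalized values were 56.7, 23.3 and 37.1 in samples 1, 4 and 10, from 25, 20 and 15 counts, and no adult sample was above background. In Low microglia they were 237, 189, 193 and 320 in samples 3, 6, 9 and 12, all above background. In High microglia they were 135, 74.3, 13.5 and 115 in samples 2, 5, 7 and 8. All 4 Low samples exceeded all samples of both other groups, and High sample 7, with 12 counts, was not above background. The group means were 39.0 ± 16.8 (SD, n = 3) in adult, 235 ± 60.9 (SD, n = 4) in Low and 84.6 ± 53.7 (SD, n = 4) in High microglia. The log2 fold change between Low and adult was 2.61 ± 0.31 (SE, limma, adjusted p = 0.00121), the third largest increase on the panel as deposited. Its exact size and rank are not measured, since no adult sample was above background. Against that background the increase was at least 3.67-fold. This call held under all 13 alternative settings (1.74 to 5.48) and without any 1 sample (2.30 to 2.92). Between High and Low the log2 fold change was -1.84 ± 0.58 (SE, limma, adjusted p = 0.0178), the fifth largest decrease. It was also called with median-of-ratios scaling (-2.10), quantile normalization (-2.14) and total scaling (-2.85). With the 6 most stable housekeeping genes it was -1.08 and not called, it was -0.17 without scaling and turned to 0.14 with the positive controls as reference. It was also not called without High sample 5 or without any 1 of the Low samples, and it was -1.12 without sample 7. Between High and adult it was 0.78 ± 0.67 (SE, limma, adjusted p = 0.365), not called, with a sign that turned under total scaling (-0.61). This last change was 1.49 and called without sample 7.

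*Ccl3* encodes MIP-1α. In adult microglia its normalized values were 1339, 969 and 1660 in samples 1, 4 and 10. In Low microglia they were 1908, 2584, 2180 and 1518 in samples 3, 6, 9 and 12. In High microglia they were 2393, 4211, 2132 and 3135 in samples 2, 5, 7 and 8. All High samples were above all adult samples, while the Low samples overlapped both other groups. The group means were 1323 ± 346 (SD, n = 3) in adult, 2047 ± 449 (SD, n = 4) in Low and 2968 ± 931 (SD, n = 4) in High microglia. The log2 fold change between High and adult was 1.15 ± 0.31 (SE, limma, adjusted p = 0.0114). It was not called when sample 5, 8, 1 or 4 was left out (range over all samples left out 0.94 to 1.33), and it turned to -0.27 under total scaling. The change was 0.51 ± 0.27 (SE, limma, adjusted p = 0.131) between High and Low, a sign that turned under quantile normalization (-0.03) and total scaling (-0.52). With the 6 most stable housekeeping genes (1.28), without scaling (2.19) and with the positive controls (2.50) this change was called. It was 0.64 ± 0.24 (SE, limma, adjusted p = 0.0923) between Low and adult, a sign that turned without scaling (-0.22) and with the positive controls as reference (-0.18). Neither of these differences was called on the deposited scale.

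*Ccl4* encodes MIP-1β and lies next to *Ccl3*. In adult microglia its normalized values were 243, 172 and 250 in samples 1, 4 and 10. In Low microglia they were 495, 526, 476 and 480 in samples 3, 6, 9 and 12. In High microglia they were 223, 294, 152 and 196 in samples 2, 5, 7 and 8. The 4 Low samples lay close together above all others, and the High and adult samples covered one range. The group means were 222 ± 42.7 (SD, n = 3) in adult, 494 ± 22.6 (SD, n = 4) in Low and 216 ± 59.8 (SD, n = 4) in High microglia. The log2 fold change was 1.17 ± 0.17 (SE, limma, adjusted p = 0.00256) between Low and adult. It was not called under total scaling (0.79), without scaling (0.32) and with the positive controls (0.36). Between High and Low it was -1.23 ± 0.24 (SE, limma, adjusted p = 0.00120), and this call held without any 1 sample (-1.39 to -1.07). It was also called with median-of-ratios scaling (-1.50), quantile normalization (-1.63) and total scaling (-2.25). With the 6 most stable housekeeping genes it was -0.46 and not called, and it turned to 0.45 without scaling and 0.75 with the positive controls. Between High and adult the change was -0.06 ± 0.29 (SE, limma, adjusted p = 0.883), which was not called and took the other sign under 4 of the references or background treatments (0.65, 0.76, 1.11 and 0.19).

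*Ccl5*, a T cell and monocyte attractant, was measured from few counts. In adult microglia its normalized values were 152, 139 and 210 in samples 1, 4 and 10. In Low microglia they were 77.9, 87.6, 82.9 and 53.3 in samples 3, 6, 9 and 12, from 13 to 31 counts. In High microglia they were 107, 117, 360 and 111 in samples 2, 5, 7 and 8. All adult and High samples were above background, against 1 of the 4 Low samples, and the Low samples were below all others. The group means were 167 ± 38.0 (SD, n = 3) in adult, 75.5 ± 15.3 (SD, n = 4) in Low and 174 ± 124 (SD, n = 4) in High microglia. The log2 fold change between Low and adult was -1.14 ± 0.23 (SE, limma, adjusted p = 0.00923). It was not called without Low sample 12 or adult sample 10 (range over all samples left out -1.26 to -0.96). The call was also lost with a pseudocount of 20 (-0.97), a shared spread (-1.14) and sample 11 in the adult group (-0.94). After background subtraction the change was -3.94. Between High and Low it was 1.01 ± 0.37 (SE, limma, adjusted p = 0.0399), which did not reach the unadjusted limit of 0.01 and was -0.01 under total scaling. It was called with the 6 most stable housekeeping genes (1.77), without scaling (2.64), with the positive controls (2.93) and after background subtraction (4.22). Without sample 7, whose value was far above those of the other High samples, it was 0.59 on the deposited scale. Between High and adult it was -0.13 ± 0.42 (SE, limma, adjusted p = 0.816), not called, with a positive sign under the 6 housekeeping genes (0.58), no scaling (0.69), the positive controls (1.03) and background subtraction (0.28).

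**Figure D2:**
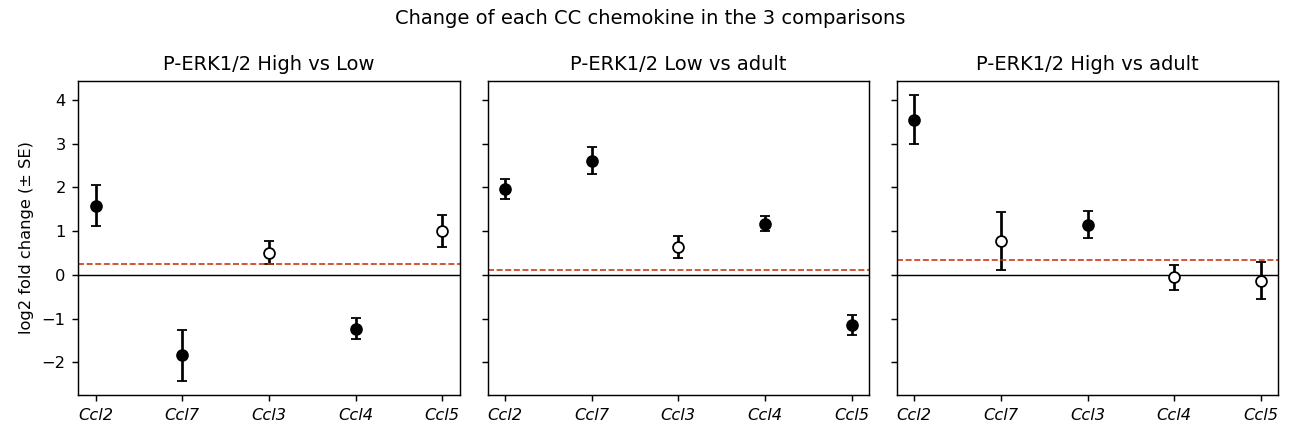
Log2 fold change of each CC chemokine with its standard error in the 3 comparisons on the deposited scale. Filled points were called (p below 0.01 and over 1 log2 unit), open points were not, and the dashed line is the median change of all 770 genes. *Ccl2* is above 0 in each panel, and *Ccl7* and *Ccl4* change from above 0 (Low vs adult) to below 0 (High vs Low, a sign that turns with the positive controls as reference).

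Because the sizes and some of the signs above depended on how samples were scaled to each other, neighbouring genes were also compared within each sample, where any such factor cancels. The ratio of *Ccl7* to *Ccl2* addresses the pair of CCR2 ligands. Probes differ in efficiency, so that a ratio has no meaning as a level and was only compared between samples. The *Ccl2* value was 36.1, 109, 92.6 and 54.4 times that of *Ccl7* in High samples 2, 5, 7 and 8. It was 5.37, 7.22, 6.90 and 5.17 times that of *Ccl7* in Low samples 3, 6, 9 and 12. The groups did not overlap. The log2 ratio of *Ccl7* to *Ccl2* was -6.03 ± 0.71 (SD, n = 4) in High and -2.60 ± 0.25 (SD, n = 4) in Low microglia. The difference of -3.42 ± 0.37 (SE) is 10.7-fold (p = 0.0286 in an exact two-sided permutation test, which is the lowest p of 4 against 4 samples, and 0.0686 after Benjamini-Hochberg adjustment over 6 ratio comparisons). In adult microglia the log2 ratio was -3.25 ± 0.68 (SD, n = 3), and has only an upper limit, since *Ccl7* was below background in all adult samples. With *Ccl7* set to the background level, the ratio of *Ccl7* to *Ccl2* was 0.297, 0.135 and 0.129 in adult samples 1, 4 and 10. The same holds for High sample 7, where the measured ratio was 0.0108 and that at background 0.0285. Differences of this ratio from adult microglia are therefore not measured.

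Of the macrophage inflammatory proteins, *Ccl3* was 10.7, 14.3, 14.1 and 16.0 times *Ccl4* in High samples 2, 5, 7 and 8. It was 3.86, 4.91, 4.58 and 3.16 times *Ccl4* in Low samples 3, 6, 9 and 12. In adult samples 1, 4 and 10 it was 5.51, 5.62 and 6.65 times *Ccl4*. No pair of groups overlapped, and the order was High, adult and Low. The log2 ratio of *Ccl4* to *Ccl3* was -3.76 ± 0.24 (SD, n = 4) in High, -2.56 ± 0.15 (SD, n = 3) in adult and -2.02 ± 0.28 (SD, n = 4) in Low microglia. The difference between High and Low was -1.74 ± 0.19 (SE), a 3.34-fold shift (exact permutation p = 0.0286, adjusted 0.0686). High differed from adult by -1.20 ± 0.15 and Low from adult by 0.53 ± 0.17 (SE, exact permutation p = 0.0571 for each, the smallest allowed). With any 1 sample left out, the difference between High and Low was -3.71 to -3.18 for *Ccl7* to *Ccl2* and -1.85 to -1.62 for *Ccl4* to *Ccl3*. In the ratio of *Ccl4* to *Ccl3*, High sample 7 lay within its group. Its ratio of *Ccl7* to *Ccl2* has only an upper limit, so that its rank in the group was not measured.

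**Figure D3:**
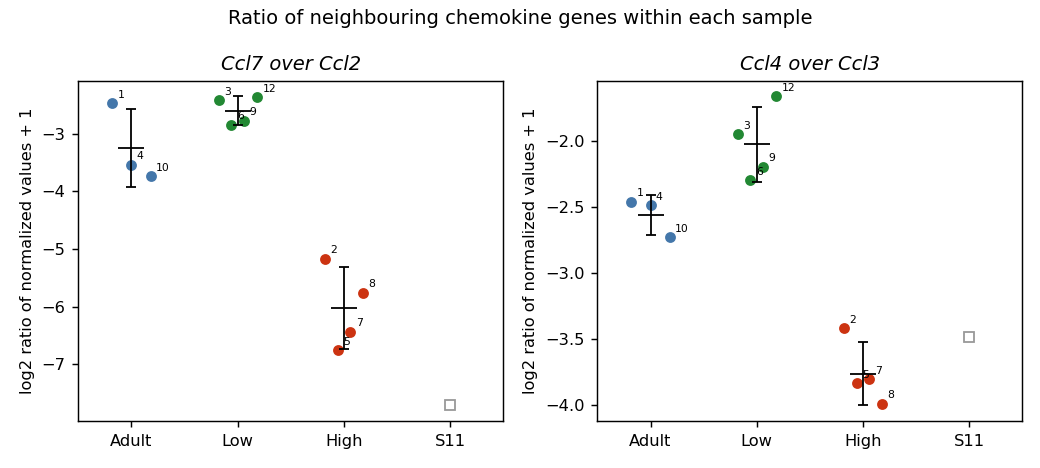
Log2 ratio of neighbouring chemokine genes within each sample (normalized values plus 1), with sample numbers, group means and SD. The 4 High samples are below all Low samples in both ratios and below all adult samples in that of *Ccl4* to *Ccl3*. *Ccl7* is below background in the adult samples and High sample 7, so that their ratios of *Ccl7* to *Ccl2* are upper limits.

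**Figure D4:**
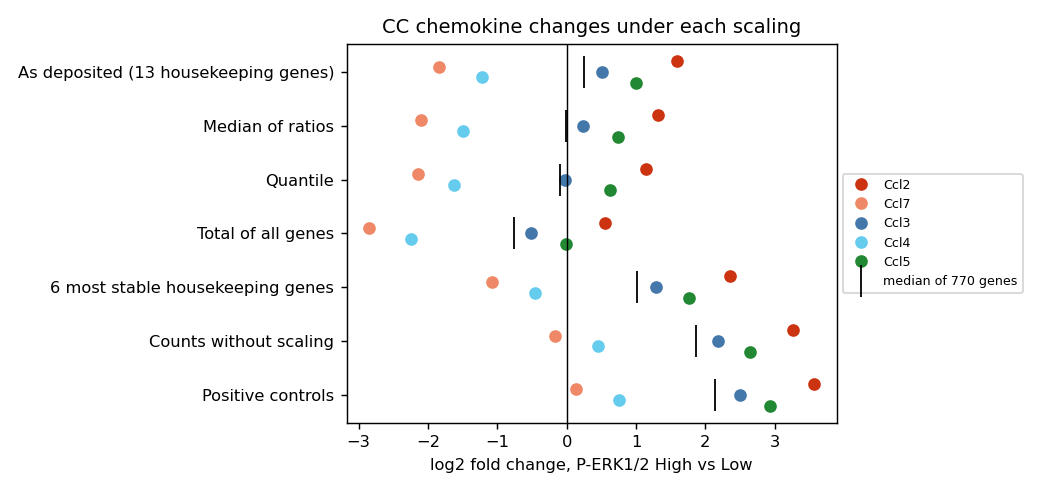
Log2 fold change between High and Low of each CC chemokine under 7 references, with the median of all 770 genes as a black tick. *Ccl2* is on the right and *Ccl7* on the left in each row. Except for quantile normalization this order is fixed in advance, as the references shift all genes about alike. *Ccl3*, *Ccl4*, *Ccl5* and *Ccl7* take either sign depending on the reference.

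The other chemokines of the panel, *Cxcl9*, *Cxcl10*, *Xcl1* and *Cx3cl1*, passed background in none of the Low samples, so that no fold against Low microglia is given for them. Their mean normalized values in High microglia were 68.2 for the interferon-induced *Cxcl9*, 47.6 for *Cxcl10*, 60.8 for *Xcl1*, an attractant of cross-presenting dendritic cells, and 27.6 for *Cx3cl1*, the ligand of CX3CR1. *Cx3cl1* was above background in only 1 of the 4 High samples and *Cxcl10* in 3, against all 4 for *Cxcl9* and *Xcl1*. The means are all below the lowest background of the Low samples (69.2), so that such levels were not detectable at the depth of the Low samples.

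Among chemokine receptors, *Ccr2*, the receptor of CCL2 and CCL7 and a marker of monocytes, had a mean of 40.2 in High microglia and was above background in no Low or adult sample, so that no comparison is given. *Cx3cr1* was not called in any comparison (0.04 between High and Low), with 1 allele of this gene carrying Cre in the study's Cre mice.

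Cytokine and signalling genes that accompany chemokines in inflammation were divided in the same comparisons. *Tnf* followed the order of *Ccl4*: it was 532 ± 117 (SD, n = 3) in adult, 1264 ± 87.0 (SD, n = 4) in Low and 443 ± 135 (SD, n = 4) in High microglia. Its log2 fold change was 1.27 between Low and adult and -1.57 between High and Low, both called. *Il1a* was called lower in Low than in adult microglia (-1.17) and higher in High than in Low microglia (2.38), with 1 of the 4 Low samples above background. *Il1b* had a mean of 97.5 ± 18.6 (SD, n = 4) in High microglia and was above background in no Low or adult sample.

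Of 16 genes of the NF-kB pathway, 3 were called higher (*Rela*, *Chuk* and *Traf6*) and 2 lower (*Nfkb2* and *Ikbkg*) in High than in Low microglia, against 28.2% and 9.61% of all genes. *Traf6* was not above background in any Low sample. *Nfkbia*, the inhibitor that NF-kB itself induces, was the only one of the 16 called between Low and adult microglia (1.24), against 10.8% of all genes. Its mean was 233 ± 15.0 (SD, n = 3) in adult, 552 ± 43.1 (SD, n = 4) in Low and 1047 ± 338 (SD, n = 4) in High microglia. Of 9 Toll-like receptor and adaptor genes, *Tlr7* and *Irak1* were called higher in High than in Low microglia (against 28.2% of all genes), none was called lower, and none was called between Low and adult. The median change of these 9 genes between High and Low was -0.42, against 0.26 for all genes. Of 6 immediate early genes, which respond within minutes to stimuli including tissue dissociation, *Fos* (1.80) and *Egr1* (1.09) were called higher in Low than in adult microglia, against 8.05% of all genes. *Atf3* was called lower in High than in Low microglia (-1.49), against 9.61% of all genes. The summed value of the 6 was 2618 to 3308 in adult, 4554 to 5543 in Low and 2107 to 4670 in High samples, with the lowest of these in sample 7. Its part in the chemokine values was not tested.

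Genes with the most similar pattern over the 11 samples were sought for each chemokine, as a description. The samples fall into 3 groups and share the same scaling, so that correlations over them are high for many genes. *Ccl2* was most like *Nptx1*, which is also a neuronal gene, *Nfkbia* and *Lig1* (Pearson r 0.99, 0.99 and 0.98 on the log2 scale). *Ccl3* was, among others, like the complement receptor *C3ar1* (0.94) and *Cd244* (0.91). *Ccl4* was most like the immunoproteasome subunit *Psmb8* (0.97), *Asph* (0.95) and the interferon-responsive factor *Irf1* (0.94). *Ccl7* was most like the complement receptor *C5ar1* (0.95), *Hilpda* (0.95) and the scavenger receptor *Cd36* (0.94). *C5ar1* and *Cd36* were both called higher in Low than in adult microglia (1.55 and 2.48) and lower in High than in Low microglia (-1.41 and -1.56). Among the chemokines r was 0.89 for *Ccl2* and *Ccl3* and 0.84 for *Ccl4* and *Ccl7*, but 0.40 for the neighbours *Ccl2* and *Ccl7* and 0.14 for *Ccl3* and *Ccl4*. For *Ccl5* it was negative, with -0.93 for *Ccl7*, -0.78 for *Ccl4*, -0.28 for *Ccl2* and -0.08 for *Ccl3*.

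*Ccl5* was most like *Ttr*, encoding the choroid plexus protein transthyretin (r 0.96), *Ctsw*, a protease of cytotoxic lymphocytes (0.92), and *Hif1a* (0.88). *Ttr* was 383 to 603 in adult, 176 to 221 in Low and 303 to 1342 in High samples, with the highest value in sample 7. *Ctsw* was 73.4 to 111 in adult and 36.7 to 152 in High samples, again highest in sample 7, and was above background in no Low sample. T and NK cells also transcribe *Ccl5*, and the summed value of 20 T and NK cell markers was 331 to 619 in adult, 348 to 508 in Low and 598 to 1498 in High samples. It was 1392 in sample 7 and 1498 in sample 5, whose *Ccl5* value was 117. In Low samples none of the 20 markers was above background, in adult samples 2 were in any sample, and in High samples 14 were in any and 4 in every sample, counts that also move with the background levels given above. Of these markers 5 of 20 were called higher in High than in Low microglia (*Cd3e*, *Cd3g*, *Trat1*, *Sh2d1a* and *Eomes*), against 28.2% of all genes, with levels in Low microglia that were not measured above background. *Cd3e* alone was 801 in sample 5 and 365 in sample 7, whereas *Gzma*, *Cd6*, *Klrb1* and *Foxp3* were above background in no High or Low sample. The sum of 9 monocyte and neutrophil markers was 762 to 1277 in adult, 512 to 578 in Low and 504 to 1357 in High samples, with the highest value in sample 7. The sums of 6 B cell markers (384) and 9 oligodendrocyte markers (605) were also highest in sample 7 among the High samples. The part of these markers in the *Ccl5* values was not tested.

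Endothelial and astrocyte genes differed in level too, and these cells can also make *Ccl2*. The purity reached with the CD11b beads and the YFP+, CD45 intermediate gate was not measured here. The sum of 5 endothelial markers was 247 to 376 in adult, 161 to 287 in Low and 582 to 1130 in High samples. That of 7 astrocyte markers was 494 to 693, 610 to 849 and 1442 to 2164 in the same order. Between High and Low, 4 of 5 endothelial and 3 of 7 astrocyte markers were called higher, against 28.2% of all genes, with *Cldn5*, *Flt1*, *Esam* and *Kcnj10* of these not above background in any Low sample. The astrocyte sum was carried by *Gja1* and *Sox9* (means of 877 and 544 in High microglia), whereas *Slc1a3* (-0.998), *S100b* (-0.45) and *Agt* (-0.20) had negative changes and were not called. The 14 neuronal markers, *Nptx1* among them, summed to 335 to 605 in adult, 511 to 640 in Low and 900 to 1298 in High samples, and between High and Low 3 of 14 were called higher and 1 lower, against 28.2% and 9.61% of all genes. *Nptx1* alone, with means of 101 in adult, 226 in Low and 591 in High microglia, carried much of the High sums. The part of these cell types in the *Ccl2* difference was not tested. The sum of 9 microglial markers was 2867 to 3562 in High, 3392 to 3713 in Low and 3539 to 3835 in adult samples. Its largest part was *Csf1r*, with means of 1553 in High, 2745 in Low and 1846 in adult microglia (-0.84 between High and Low, not called). Above background were 8 of the 9 in every High sample, 2 in every Low sample and 5 in every adult sample. Of these markers *P2ry12*, *Tmem119*, *Sall1* and *Gpr34* were called higher in High than in Low microglia (4 of 9, against 28.2% of all genes, with *P2ry12* and *Gpr34* not above background in any Low sample), and *Tmem119*, *Fcrls* and *Olfml3* lower in Low than in adult microglia (3 of 9, against 2.73%). The 4 border macrophage markers summed to 158 to 210, 136 to 168 and 130 to 159 in High, Low and adult samples.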

How the data were processed

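The authors normalized the NanoString nCounter counts in nSolver (version not given in the sources used here) and deposited 1 signal value per gene and sample for 757 endogenous and 13 housekeeping genes, with 14 control probes left as raw counts. Dividing each value by 1 factor per sample, taken from the values, returned counts that were whole to within 0.1 for 99.8% of values, and the geometric mean of the housekeeping genes was 173 in all samples. No background had been subtracted, so fold changes of genes near background are compressed.

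Samples were grouped by their labels. The labels do not say whether High and Low samples came from the same mice, in which case they would be paired. All samples were treated as unpaired, and p-values measure the spread between these samples. On log2(value + 1), all 770 genes were fitted with limma (version 3.58.1, R version 4.3.3) without a filter, using only the groups compared. Genes were called at an unadjusted p below 0.01 with more than 1 log2 unit of change, limits the study also gives without saying whether its p was adjusted. Adjusted p-values follow Benjamini and Hochberg. For *Ccl7* in Low against adult microglia, where no adult sample was above background, a bound of the fold against that background was computed. Ratios of neighbouring genes were compared by exact two-sided permutation tests. Genes named are the members, members of lists compiled from the panel by general knowledge, and the 3 genes most correlated with each member. Some results on genes other than the members are not reported here. Members and lists were chosen with earlier results of these data known. Gene positions come from RefSeq (GRCm38.p6), in which 763 of the gene names were current symbols and 7 synonyms.

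As alternatives, the pseudocount was 0.1 or 20, genes with a mean below 50 were dropped, and further settings were 6 other scalings, background subtraction, a shared spread, an adjusted p under 0.05, adult sample 11 and leaving out each sample. Positive-control scaling and background subtraction were added after seeing the data. The number of samples and, in Low and adult samples, the low counts limit the precision.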

Additional observations from a re-analysis of the deposited data

Results flagged for a closer look

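The *Ccl5* value of 360 in P-ERK1/2 High sample 7 stood apart from the 107 to 117 of the other 3 samples of its group. On the log2 scale the gap made up 0.926 of the group's range, above Dixon's 95% critical value for 4 samples. This was the only one of 14 groups of values tested that passed it, and chance alone passes about 1 in 20 groups.

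Adult sample 11, which the labels exclude for poor quality, had values of 3 chemokines above all 3 adult samples compared: 10439 for *Ccl2* (282 to 507 in the others), 3616 for *Ccl3* (969 to 1660) and 322 for *Ccl4* (172 to 250). Its *Ccl5* value of 93.9 was below those of the others (139 to 210), and its *Ccl7* value of 48.9 lay within their range (23.3 to 56.7). Its total of 1464449 counts exceeded that of the other adult samples, and its highest positive control, 5896 counts, was below the 23043 to 38742 of all other samples. Its log2 ratio of -3.49 for *Ccl4* to *Ccl3* was below those of all other adult samples. That of *Ccl7* to *Ccl2* was -7.71, and its rank is not measured, since the other adult samples have only upper limits.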

How the results depend on the processing

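Values are log2 fold changes, with P-ERK1/2 High and Low microglia written as High and Low. The limits are those of 3 or 4 samples per group and of low counts: *Ccl7* in the 3 adult samples and *Ccl5* in 3 of 4 Low samples were not above background, and after background subtraction *Ccl5* was -3.94 and *Ccl7* 5.48 in Low vs adult, and *Ccl7* 3.404 in High vs adult. The edgeR alternative was not run. No paired analysis was possible because the sample numbers are unique to each sample.

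For High vs Low, *Ccl2* was not called with median-of-ratios scaling (1.32), quantile normalization (1.14), total scaling (0.56) or background subtraction (1.68). *Ccl3* was called with the 6 most stable housekeeping genes (1.28), without scaling (2.19) and with the positive controls (2.50), and turned negative with quantile normalization (-0.029) and total scaling (-0.52). *Ccl4* was -0.46 with the 6 housekeeping genes, 0.45 without scaling and 0.75 with the positive controls. *Ccl5* was called with the 6 housekeeping genes (1.77), without scaling (2.64), with the positive controls (2.93), after background subtraction (4.22) and at an adjusted p under 0.05 (1.01), and was -0.010 with total scaling. *Ccl7* was not called with the 6 housekeeping genes (-1.08), without scaling (-0.17) or after background subtraction (-2.08), and was 0.14 with the positive controls. The 291 genes called became 596 without scaling (595 higher) and 658 with the positive controls (658 higher). With any 1 sample left out they were 235 to 310, and the changes were 1.27 to 2.17 for *Ccl2*, 0.33 to 0.65 for *Ccl3*, -1.39 to -1.07 for *Ccl4*, 0.59 to 1.17 for *Ccl5* and -2.20 to -1.12 for *Ccl7*.

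For Low vs adult, *Ccl7* was called in every setting. *Ccl5* was not called with a pseudocount of 20 (-0.97), a shared spread (-1.14) or sample 11 (-0.94), and *Ccl2* was not called with sample 11 (0.75). *Ccl4* was not called with total scaling (0.79), without scaling (0.32) or with the positive controls (0.36), and *Ccl3* turned to -0.22 without scaling and -0.18 with the positive controls. The 83 genes called (62 higher) became 240 without scaling (8 higher), 221 with the positive controls (8 higher), 83 with total scaling (24 higher) and 34 with sample 11 (21 higher). With any 1 sample left out they were 75 to 95, and the changes were 1.79 to 2.22 for *Ccl2*, 0.43 to 0.82 for *Ccl3*, 1.00 to 1.27 for *Ccl4*, -1.26 to -0.96 for *Ccl5* and 2.30 to 2.92 for *Ccl7*.

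For High vs adult, *Ccl3* was not called with median-of-ratios scaling (0.76), quantile normalization (0.12), background subtraction (1.21) or sample 11 (0.78), and was -0.27 with total scaling. *Ccl4* was 0.65 with the 6 housekeeping genes, 0.76 without scaling, 1.11 with the positive controls, 0.19 after background subtraction and, called, -1.47 with total scaling. *Ccl5* was 0.58, 0.69, 1.03 and 0.28 in the first 4 of these settings and 0.070 with sample 11. *Ccl7* was -0.61 with total scaling and was called without scaling (1.57) and with the positive controls (1.91), and *Ccl2* was not called with sample 11 (2.33). The 284 genes called (225 higher) became 49 with sample 11 (49 higher), 357 with the 6 housekeeping genes (352 higher) and 401 with total scaling (40 higher). With any 1 sample left out they were 225 to 303, and the changes were 3.23 to 4.13 for *Ccl2*, 0.94 to 1.33 for *Ccl3*, -0.23 to 0.10 for *Ccl4*, -0.55 to 0.05 for *Ccl5* and 0.42 to 1.49 for *Ccl7*. *Ccl4* was 0.02 without adult sample 1, 0.10 without High sample 7 and 0.04 without adult sample 10, and *Ccl5* was 0.03 without High sample 2, 0.01 without High sample 8 and 0.047 without adult sample 10.

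Values that kept their call but moved by over 1.5 times were, in High vs Low, *Ccl2* without scaling (3.26) and with the positive controls (3.57) and *Ccl4* (-2.25) and *Ccl7* (-2.85) with total scaling. In Low vs adult they were *Ccl2* (1.11 and 1.15) and *Ccl5* (-1.95 and -1.90) without scaling and with the positive controls and *Ccl7* without scaling (1.74), and in High vs adult *Ccl2* with total scaling (2.14) and *Ccl3* with the 6 housekeeping genes (1.86), without scaling (1.97) and with the positive controls (2.32).

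With any 1 sample left out, the ratio of *Ccl7* to *Ccl2* differed by -3.71 to -3.18 in High vs Low, and by 0.41 to 1.04 in Low vs adult and -3.06 to -2.39 in High vs adult, where the adult *Ccl7* is below background and the sign is not measured. That of *Ccl4* to *Ccl3* differed by -1.85 to -1.62, 0.41 to 0.62 and -1.32 to -1.13 in the same order, though 4 against 3 samples allow no p below 0.0571. With sample 11 the *Ccl4* to *Ccl3* difference of Low vs adult was 0.77 (exact permutation p = 0.0286). The cause of these changes was not tested.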
